A study of Mus musculus with 6 samples.

Results

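The regenerating (Reg) genes encode small secreted proteins of the C-type lectin fold that are made mainly by the pancreas and the gut. The 6 members described here, Reg1, Reg2, Reg3a, Reg3b, Reg3d and Reg3g, were taken by symbol from the deposited table of estimated counts, which lists 34945 symbols. Of the 6, 4 (Reg1, Reg2, Reg3b and Reg3d) passed the filter on low counts, as did 14073 genes in all, and Reg3a and Reg3g did not. RNA was sequenced from islets isolated from mouse pancreas, with 3 libraries in each of 2 groups. Mice of both groups carried RIP-Cre, a Cre recombinase under the rat insulin promoter, together with Rosa26-rtTA, a transcription factor that doxycycline switches on. The Jag1 group carried tetO_Jag1 as well, a doxycycline-driven allele of Jag1 (a ligand of Notch receptors) that the control group lacked. Doxycycline was given in the drinking water for 8 weeks in both groups. The labels give neither age, sex nor strain, and do not say that the libraries of a group stem from different mice. The spread behind each p-value may therefore be technical. RIP-Cre acts in beta cells, whereas the sequenced RNA came from whole islets with the tissue attached to them, and there was no group without Cre, rtTA or doxycycline.

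In a healthy pancreas, Reg1 is made by acinar cells, the exocrine cells that fill the gland around the islets and secrete digestive enzymes. Reg2 is also known from beta cells, where it has been studied as a growth and survival factor. Reg3b, first described as pancreatitis-associated protein, and Reg3g, a lectin that kills bacteria, are induced in injured or inflamed epithelium by cytokines that act through the transcription factor STAT3. Isolated islets carry a variable amount of attached acinar tissue, so each Reg gene was set against the acinar content of its library.

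The labels and the marker genes were checked first. Library totals were 14283469 to 34348729 estimated counts. Insulin transcripts took 11.4% to 18.8% of counts in every library. Jag1 itself stood at 4.01 to 4.28 CPM (the count scaled to library size) in the control libraries and at 524.9 to 906.9 CPM in the Jag1 libraries, so every library followed its label. A list of 38 acinar enzyme genes, which holds no Reg gene, took 15.2%, 5.26% and 0.616% of the counts across Control 1 to 3 and 1.24%, 4.06% and 15.4% across Jag1 1 to 3. The acinar share therefore varied widely between libraries and spanned much the same range in both groups. In whole islets, fewer cells of a type and less RNA per cell cannot be told apart.

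The 6 genes form 1 cluster on chromosome 6 between 78370657 and 78468872 (GRCm38, GENCODE vM21), a stretch of 98.2 kb with 0 other annotated genes inside. In order along the chromosome, Reg3b lies at 78370657 to 78373466, Reg3d at 78375874 to 78378865, Reg3a at 78380709 to 78383827, Reg2 at 78395623 to 78408106, Reg1 at 78422711 to 78428667 and Reg3g at 78466269 to 78468872. Reg3d and Reg3g are on the minus strand and the other 4 on the plus strand. The nearest annotated genes outside are the processed pseudogenes Gm5576 on one side and Gm21392 and Gm6072 on the other. Coding sequences are 78.8% identical between Reg1 and Reg2 and 76% between Reg3b and Reg3g. Either of Reg1 and Reg2 is only 55% to 59.9% identical to any Reg3 gene. Stretches of 31 bases shared between members were few: 5 between Reg3b and Reg3g, and 0 between Reg1 and Reg2.

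Because these neighbours split into a pair that tracked the acinar share tightly (Reg1 and Reg3d) and a pair that did so loosely (Reg2 and Reg3b), the sequence before the start of these 4 genes is shown. Each stretch comes from the 250 bases upstream of the RefSeq start (GRCm38.p6), without bases that lie in an annotated exon. It is chr6:78425733-78425929 (plus strand) for Reg1, chr6:78378866-78379115 (minus) for Reg3d, chr6:78404905-78405154 (plus) for Reg2 and chr6:78370707-78370860 (plus) for Reg3b. The stretches of Reg1, Reg2 and Reg3b lie inside the GENCODE span of their own gene, in introns of longer annotated transcripts, and that of Reg3d lies between genes. Capitals mark letters that match 1 of 4 motifs on either strand: CACCTG and TTTCCC, the E-box form and the TC-box core bound by the acinar PTF1 complex, TATAAA, the TATA box, and TTCNNNGAA, the form of a STAT site. In Reg3d a TTTCCC and a TTCNNNGAA overlap.
Reg1: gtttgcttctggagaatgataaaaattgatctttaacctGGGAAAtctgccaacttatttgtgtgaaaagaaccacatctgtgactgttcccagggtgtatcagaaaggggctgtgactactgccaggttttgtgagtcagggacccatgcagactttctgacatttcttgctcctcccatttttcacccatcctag
Reg3d: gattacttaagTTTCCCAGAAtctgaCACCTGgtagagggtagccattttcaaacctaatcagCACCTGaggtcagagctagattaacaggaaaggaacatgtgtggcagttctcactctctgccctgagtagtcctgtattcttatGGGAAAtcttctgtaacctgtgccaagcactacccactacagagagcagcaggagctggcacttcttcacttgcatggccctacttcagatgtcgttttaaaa
Reg2: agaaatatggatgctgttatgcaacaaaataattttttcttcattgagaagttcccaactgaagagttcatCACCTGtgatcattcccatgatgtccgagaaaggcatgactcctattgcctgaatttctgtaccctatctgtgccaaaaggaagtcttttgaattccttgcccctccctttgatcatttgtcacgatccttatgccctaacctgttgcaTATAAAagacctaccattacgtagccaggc
Reg3b: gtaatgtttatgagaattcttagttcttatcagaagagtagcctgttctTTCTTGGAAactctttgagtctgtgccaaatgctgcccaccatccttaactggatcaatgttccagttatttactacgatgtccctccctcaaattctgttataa
Over the whole 250 bases, including those in exons that are not shown, the E-box letters CACCTG occur in Reg2, Reg3a and Reg3b, at 2 places in Reg3d, and in 17.2% of 32851 mouse promoters of that length. TTTCCC occurs in Reg1, Reg3b, Reg3d and Reg3g and in 21.9% of promoters. TATAAA occurs in Reg1, Reg2, Reg3b and Reg3g and in 12.4% of promoters. TTCNNNGAA occurs in Reg3b and Reg3d and in 7.02% of promoters. These are matches of letters, not measured binding, and no motif separates the pair Reg1 and Reg3d from the pair Reg2 and Reg3b.

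Reg1 was by far the most abundant member. It stood at 1574, 426.5 and 71.9 CPM across Control 1 to 3 and at 79.4, 185.8 and 1384 CPM across Jag1 1 to 3. The highest control and the highest Jag1 library were the ones richest in acinar transcripts, and the groups overlapped. Reg1 made up 78.0% to 95.2% of the Reg counts of a library. Per kb of its longest coding transcript, Reg1 had a level of 764 ± 869 CPM in the control and 608 ± 801 CPM in the Jag1 libraries (SD, n = 3 each).

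Reg3d, the mouse gene related to islet neogenesis-associated protein, had a lower level and the same profile. Its level was 34.7, 9.57 and 1.56 CPM across Control 1 to 3 and 1.59, 5.35 and 29.3 CPM across Jag1 1 to 3. Again Control 1 and Jag1 3 were highest and Control 3 and Jag1 1 lowest.

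Reg2 had a different profile, with 144, 14.9 and 16.0 CPM across Control 1 to 3 and 2.02, 2.64 and 31.1 CPM across Jag1 1 to 3. Control 3, the library poorest in acinar transcripts, had as much Reg2 as Control 2. Reg2 took 17.4% of the Reg counts in Control 3, 3.27% and 7.98% in Control 2 and Control 1, and 1.35% to 2.40% in the Jag1 libraries.

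Reg3b resembled Reg2. It had 43.6, 3.90 and 2.58 CPM across Control 1 to 3 and 0.691, 1.54 and 8.09 CPM across Jag1 1 to 3. Jag1 3 stood above Control 2 and Control 3, so the groups overlapped for Reg2 and Reg3b alike.

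Reg3a and Reg3g were close to the limit of detection. Reg3a had 106, 4 and 1 counts across Control 1 to 3 and 0, 4 and 12 counts across Jag1 1 to 3, which put it at 5.82 CPM in Control 1 and at 0.709 CPM or less elsewhere. Reg3g had 31, 3 and 1 counts in the control and 9, 3 and 19 counts in the Jag1 libraries, with 1.70 CPM as its highest level. A count of 0 allows up to 3 counts, or 0.0853 to 0.204 CPM depending on the library. Reg4, the remaining mouse Reg gene, lies outside this cluster and had 3 counts in Jag1 1 and 0 in the other 5 libraries.

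In order of level per kb of transcript, the control means ran from Reg1 through Reg2 (83.5 ± 106 CPM per kb), Reg3b (21.3 ± 29.8), Reg3d (19.5 ± 22.1) and Reg3a (2.47 ± 3.97) to Reg3g (0.836 ± 1.19). In the Jag1 libraries Reg2 (17.1 ± 23.8 CPM per kb) and Reg3d (15.4 ± 19.2) came next after Reg1, followed by Reg3b (4.39 ± 5.17), Reg3g (0.729 ± 0.679) and Reg3a (0.332 ± 0.461). Every SD was close to its mean or above it, so neighbours in these orders did not differ beyond their spread, although Reg1 exceeded every other member in each library.

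**Figure D1:**
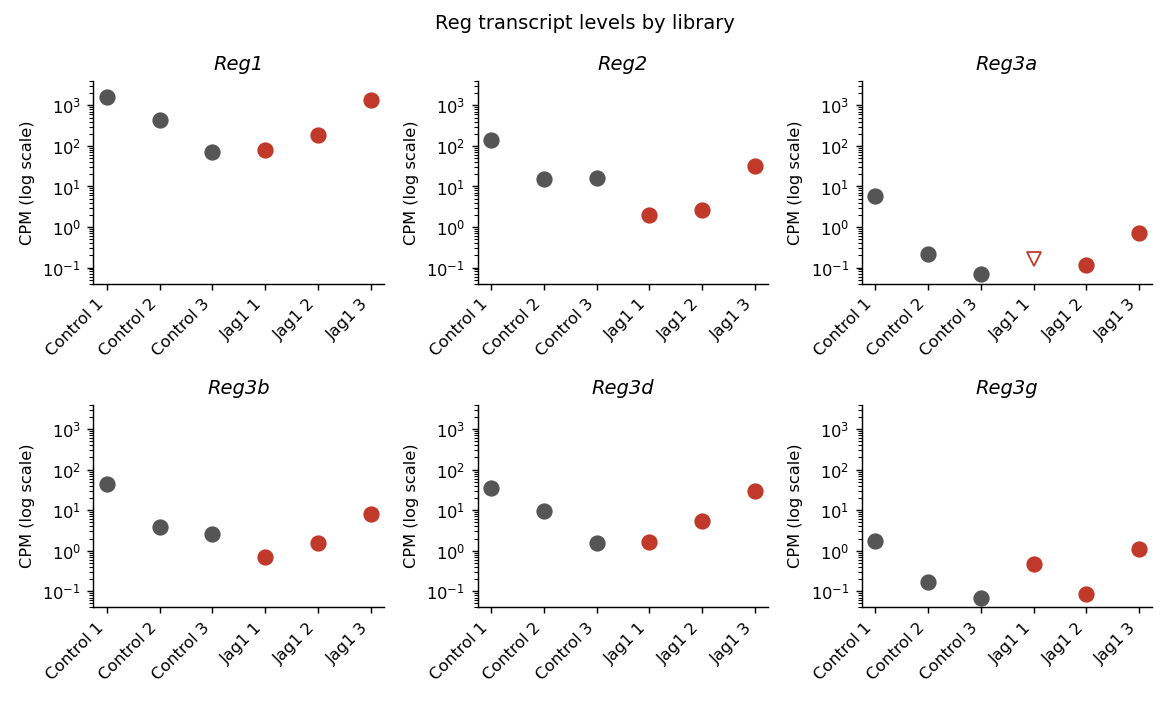
Level of each Reg gene (CPM, log axis) in the 3 control (grey) and 3 Jag1 (red) libraries, one panel per gene, by library. An open triangle marks a library with 0 counts, drawn at the level of 3 counts. The groups overlap in every panel, and for Reg1 and Reg3d the highest points are Control 1 and Jag1 3.

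The first comparison asked whether the Jag1 allele changed the level of any Reg gene in islets. The quasi-likelihood test of edgeR, adjusted by the Benjamini-Hochberg method over all genes, called 0 of the 4 tested members, against a background of 0.0213% of 14073 genes. Reg1 had a log2 fold change of -0.33 (SE 1.63, adjusted p = 0.997) and Reg3d one of -0.37 (SE 1.52, adjusted p = 0.996). Reg2 and Reg3b had lower means in the Jag1 libraries, with log2 fold changes of -2.34 (SE 1.67, adjusted p = 0.955) and -2.34 (SE 1.63, adjusted p = 0.955). The standard errors exceed 1.5 on the log2 scale, so changes of this size were not detectable beyond the spread between libraries. Among the 4, 0 had an unadjusted p under 0.05, as 700 of the 14073 genes tested did. DESeq2 called 0 members and gave no adjusted p for Reg2 and Reg3b. Without the filter on low counts, Reg3a had -2.96 (adjusted p = 0.889) and Reg3g -0.26 (adjusted p = 0.988) by edgeR.

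In the authors' deposited table of their own limma comparison, the log2 fold change was -0.40 for Reg1 (adjusted p = 0.987), -2.80 for Reg2 (p = 0.0297, adjusted p = 0.929), -2.11 for Reg3b (p = 0.0758, adjusted p = 0.929) and -0.60 for Reg3d (adjusted p = 0.974). That table called none of these 4 genes either. In CPM, 0 of the 4 had groups that did not overlap, while 5.21% of all genes tested had all 3 Jag1 values below all 3 control values.

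These fold changes rested heavily on single libraries. Without Control 1, Reg1 and Reg3d turned to 1.14 and 1.07 on the log2 scale, Reg3b to 0.053, and Reg2 moved to -0.41. Reg1 also turned without Jag1 1 (0.18) or without Jag1 2 (0.079), and Reg3d without Jag1 1 (0.14). Without Jag1 3 the values were -2.38 for Reg1, -4.62 for Reg2, -3.83 for Reg3b and -2.09 for Reg3d. When the pair of libraries richest in acinar transcripts, Control 1 and Jag1 3, was left out together, Reg2 had a log2 fold change of -2.70 and was called by edgeR (adjusted p = 0.000888). In that fit Reg3b had -1.49 (adjusted p = 0.765). The fit without this pair has fewer libraries in each group and called 7 genes in all, against 3 with all 6 libraries. The 6 Reg genes together took 0.166%, 0.0461% and 0.00949% of the counts across Control 1 to 3 and 0.00889%, 0.0200% and 0.139% across Jag1 1 to 3. That summed share differed by -0.52 on the log2 scale (exact 2-sided permutation test, p = 0.7, n = 3 each), and the difference turned to 0.48 without Control 1 and to 0.34 without Jag1 1.

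The second comparison set the members against the acinar share. The slope, the change in log2 level for each 2-fold rise of the acinar share with the group held in the model, is 1 for a gene in strict proportion to acinar content. Reg1 had a slope of 1.02 (SE 0.08, edgeR adjusted p = 0.000984) and Reg3d one of 1.06 (SE 0.06, adjusted p = 9.67e-07). For comparison, the 37 tested acinar enzymes had a median slope of 1.02 and a range of 0.64 to 1.13, with 35 called. The share is the summed counts of these same enzymes, so slopes near 1 are built in for them as a set. No Reg gene enters that sum. Reg1 and Reg3d thus rose with the acinar share as steeply as the digestive enzymes did.

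Reg3b had a slope of 0.93 (SE 0.21) and Reg2 one of 0.79 (SE 0.29), and neither passed by edgeR (adjusted p of 0.395 and 0.691). In all, 2 of the 4 tested members had a called positive slope, where 0.739% of all genes did. DESeq2 called 3 of the 4, with Reg3b as the added one (adjusted p = 0.00655), against 1.21% of all genes. Without the filter, Reg3a had a slope of 1.65 (edgeR adjusted p = 0.000177) and Reg3g one of 0.68 (adjusted p = 0.405). The Reg3a slope rests on few counts and was 2.11 without Control 3 (adjusted p = 0.0641).

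The Reg1 call ended without Control 1 (slope 1.02, adjusted p = 0.112), with the slope itself unchanged to 2 decimals. The Reg3b slope was called in the non-robust fit (adjusted p = 0.0185) and without Control 2 (adjusted p = 1.94e-06). Without both Control 1 and Jag1 3, the slopes were 0.81 for Reg1 (adjusted p = 1.98e-09) and 0.89 for Reg3d (adjusted p = 0.000531), but 0.015 for Reg2 (adjusted p = 0.98) and 0.29 for Reg3b (adjusted p = 0.592). In the 4 libraries with less acinar content the slopes of Reg1 and Reg3d thus passed and those of Reg2 and Reg3b did not, and the difference between the slopes was not tested. With a group term and a slope fitted to 4 libraries, these p-values rest mostly on the spread estimated across genes. Which members passed there therefore carries little weight.

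**Figure D2:**
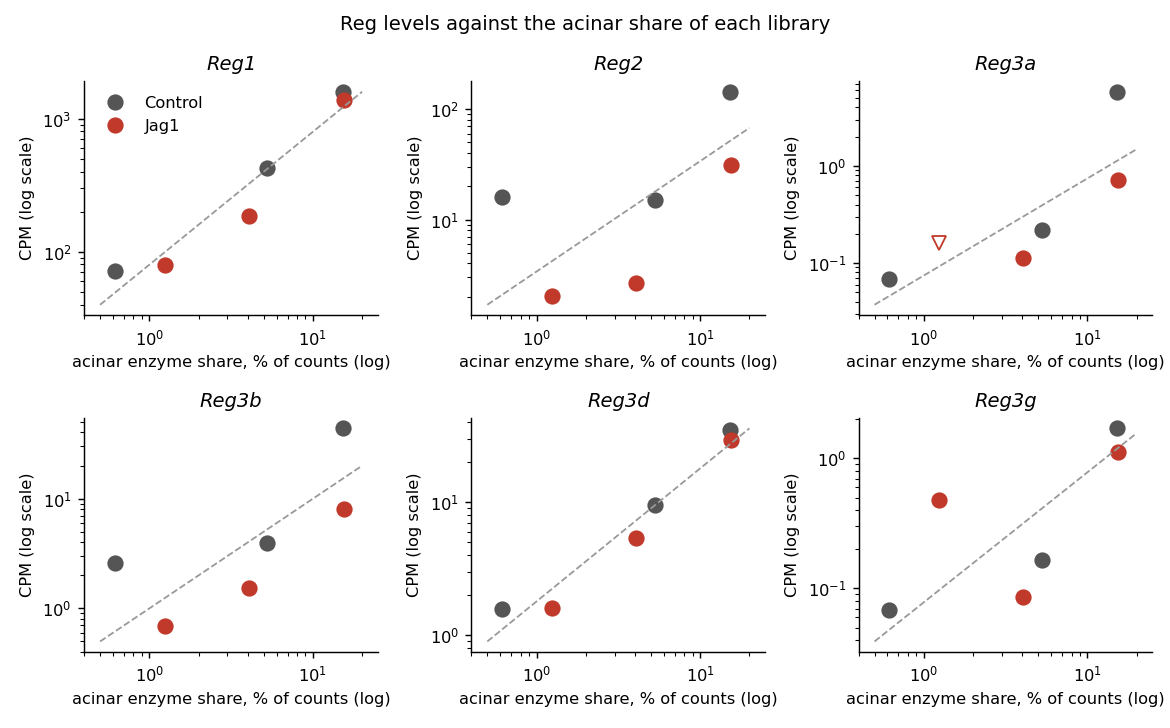
Level of each Reg gene (CPM, log axis) against the acinar enzyme share of counts (percent, log axis) in the 6 libraries. Grey is control, red is Jag1, and an open triangle is a library with 0 counts drawn at the level of 3 counts. The dashed line has a slope of 1, strict proportion. Reg1 and Reg3d lie along it, while for Reg2 and Reg3b the Jag1 libraries lie below the control libraries of like acinar share.

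**Figure D3:**
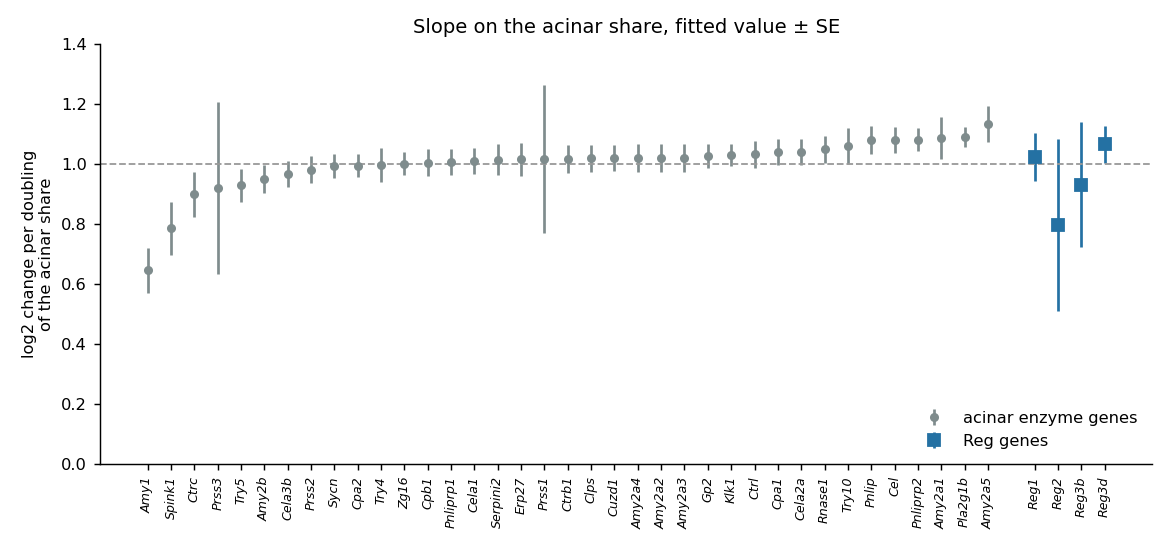
Slope on the acinar share (log2 level per 2-fold rise of the share) with its SE as a bar for the 4 tested Reg genes and, for comparison, acinar genes. Reg1 at 1.02 and Reg3d at 1.06 sit among the enzymes, whose summed counts define the share, and Reg2 at 0.79 has the widest bar of the 4 members.

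For the 4 tested members the same order appeared in correlations of log2 CPM with log2 acinar share over the 6 libraries. The low-count members Reg3a and Reg3g did not keep their places in it. The correlations were tested by exact permutation of all 720 pairings and adjusted over the 6 members. Reg1 had Pearson's r of 0.97 (p = 0.00833, adjusted p = 0.025) and Spearman's rho of 0.94 (p = 0.0167, adjusted p = 0.05, exact permutation). Reg3d had r = 0.98 (p = 0.00556, adjusted p = 0.025) and rho = 0.94 (p = 0.0167, adjusted p = 0.05, exact permutation). These 2 were the members whose r passed after adjustment, while rho came to 0.05 and not below it. Without Control 3 and Jag1 1, the libraries farthest from the median share and both at its low end, r was 0.98 for Reg1 and 0.99 for Reg3d over 4 libraries.

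The other 4 members did not pass the same exact permutation tests. Reg3a had r = 0.80 (p = 0.0361, adjusted p = 0.0722) and rho = 0.89 (p = 0.0333, adjusted p = 0.0667). Reg3b had r = 0.74 (p = 0.0917, adjusted p = 0.137) and rho = 0.77 (p = 0.103, adjusted p = 0.123). Reg3g had r = 0.70 (p = 0.133, adjusted p = 0.16) and rho = 0.77 (p = 0.103, adjusted p = 0.123), and Reg2 was the loosest, with r = 0.60 (p = 0.219, adjusted p = 0.219) and rho = 0.60 (p = 0.242, adjusted p = 0.242). Without Control 3 and Jag1 1, r was 0.83 for Reg3a, 0.86 for Reg3b, 0.99 for Reg3g and 0.87 for Reg2.

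Transcription factors of acinar cells were set beside the members. Ptf1a and Rbpjl, subunits of the PTF1 complex that drives the digestive enzyme genes, had slopes of 1.11 (SE 0.14, edgeR adjusted p = 0.00162) and 1.12 (SE 0.10, edgeR adjusted p = 0.000129), close to those of Reg1 and Reg3d. Gata4, Nr5a2 and Bhlha15 had slopes of 0.69, 0.27 and 0.12 and did not pass. Measured on the summed share of these 5 factors, in which Bhlha15 dominates, neither Reg1 (slope 4.22, adjusted p = 0.796) nor Reg3d (3.90, adjusted p = 0.872) passed.

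The third comparison asked whether the groups differed once acinar content was taken out. Per 1000 acinar enzyme counts there were 9.53, 8.21 and 12.0 Reg1 counts across Control 1 to 3 and 6.75, 4.68 and 8.57 across Jag1 1 to 3. The highest Jag1 library exceeded Control 2, so the groups overlapped, and the mean difference was -0.60 on the log2 scale (exact 2-sided permutation test, p = 0.2, n = 3 each). A level that varied 21.9-fold between libraries in CPM thus varied 2.57-fold per acinar count.

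Reg2 differed most. Per 1000 acinar counts it had 0.871, 0.287 and 2.68 counts across Control 1 to 3 and 0.172, 0.0666 and 0.193 across Jag1 1 to 3. All 3 Jag1 libraries lay below all 3 control libraries, with a difference of -2.75 on the log2 scale, 6.73-fold lower (exact 2-sided permutation test, p = 0.1, n = 3 each). That p is the smallest that 3 against 3 can give.

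Reg3b behaved alike, with 0.264, 0.0752 and 0.432 counts per 1000 acinar counts across Control 1 to 3 and 0.0588, 0.0387 and 0.0501 across Jag1 1 to 3. Again no Jag1 library reached the lowest control, and the difference was -2.08 on the log2 scale, 4.22-fold lower (exact 2-sided permutation test, p = 0.1, n = 3 each). In both genes the control libraries were far more spread than the Jag1 libraries: the Reg3b level per 1000 acinar counts was 0.257 ± 0.178 in the control and 0.0492 ± 0.0101 in the Jag1 libraries (SD, n = 3 each).

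Reg3d had 0.210, 0.184 and 0.261 counts per 1000 acinar counts across Control 1 to 3 and 0.136, 0.135 and 0.181 across Jag1 1 to 3. The groups did not overlap here either, but Jag1 3 and Control 2 nearly touched, and the difference of -0.54 on the log2 scale was only 1.45-fold (exact 2-sided permutation test, p = 0.1, n = 3 each). With 5 core enzymes as the denominator the Reg3d groups overlapped (p = 0.2, exact permutation).

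Reg3a overlapped narrowly, with 0.00439 counts per 1000 acinar counts in Jag1 3 against 0.00424 in Control 2. With 0.5 added to each count the overlap closed, and Reg3a differed by -2.14 on the log2 scale (exact 2-sided permutation test, p = 0.1, n = 3 each). Reg3g had 0.24 (p = 1, exact permutation) and turned to -0.35 without Control 2 and to -0.90 without Jag1 1. All Reg counts together differed by -0.74 per acinar count (p = 0.2, exact permutation). With 3 libraries against 3, none of these tests can reach 0.05.

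Among all 14073 genes tested, 11 (0.0782%) had all 3 Jag1 values below all 3 control values per acinar count, and Reg2, Reg3b and Reg3d were 3 of these 11. By construction, a gene that does not follow acinar content spreads widely on this scale. A closer background is the genes that follow acinar content: of the 104 with a called positive slope, 4 lay lower without overlap, which were Reg3d itself and the enzyme genes Klk1, Pla2g1b and Rnase1, so that 3 of the 37 acinar enzymes did. Reg2 and Reg3b, without a called slope, are not among the 104. With any one library left out, the difference ranged from -3.55 to -1.94 for Reg2 and from -2.80 to -1.54 for Reg3b on the log2 scale. Since the groups did not overlap, leaving out a library could change only the size of these differences and not their direction. With the 5 acinar transcription factors as the denominator the groups overlapped for Reg2 (-2.83, p = 0.2) and Reg3b (-2.16, p = 0.3) by the exact permutation test.

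**Figure D4:**
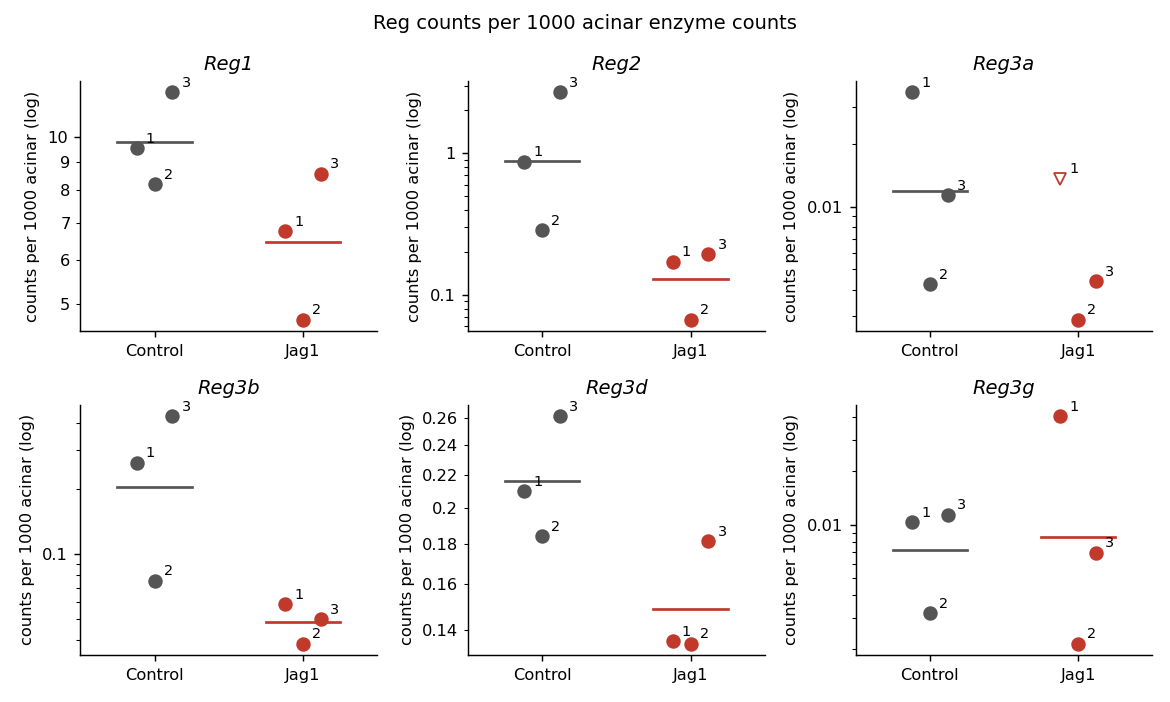
Reg counts per 1000 acinar enzyme counts (log axis, its range set for each panel) in the control (grey) and Jag1 (red) libraries, numbered by library. Horizontal lines are geometric means, left out for the Jag1 group of Reg3a, which holds a library at 0 counts (open triangle, drawn at 3 counts). The 3 Jag1 libraries lie below the 3 control libraries for Reg2, Reg3b and, by a narrow gap, Reg3d.

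Fitted across all genes with the acinar share as a covariate, the group difference did not pass for any tested member, against a background of 0.0355% of genes called. Reg2 had -2.70 (SE 1.10, edgeR adjusted p = 0.847) and Reg3b -2.24 (SE 0.73, edgeR adjusted p = 0.821). Reg1 had -0.60 (SE 0.26, edgeR adjusted p = 0.824) and Reg3d -0.46 (SE 0.20, edgeR adjusted p = 0.824). Of the 4 members, 2 (Reg3b and Reg3d) had an unadjusted p under 0.05. The share of all genes under that limit was not counted for this fit, so these 2 have no background to be set against. The lower Reg2 and Reg3b values per acinar count thus were seen in each Jag1 library but did not pass adjustment over all genes in this fit.

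A measure that needs no enzyme list is the ratio to Reg1, which was chosen after the values were seen. Reg1 itself rose with the acinar share, so this ratio is not independent of the acinar one. Per 1000 Reg1 counts, Reg3d had 22.0, 22.4 and 21.8 counts across Control 1 to 3 and 20.1, 28.8 and 21.2 across Jag1 1 to 3. The ratio of these 2 genes stayed within 20.1 to 28.8 over libraries whose levels differed 21.9-fold for Reg1 and 22.2-fold for Reg3d, with a group difference of 0.06 on the log2 scale (exact 2-sided permutation test, p = 1, n = 3 each).

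Reg2 had 91.5, 34.9 and 223 counts per 1000 Reg1 counts across Control 1 to 3 and 25.4, 14.2 and 22.5 across Jag1 1 to 3, 4.44-fold lower (exact 2-sided permutation test, p = 0.1, n = 3 each). Reg3b had 27.7, 9.16 and 36.0 across Control 1 to 3 and 8.70, 8.26 and 5.85 across Jag1 1 to 3, 2.79-fold lower (exact 2-sided permutation test, p = 0.1, n = 3 each). In neither gene did the groups overlap, though for Reg3b Control 2 stood just above Jag1 1. Over all genes tested, 4 (0.0284%) were lower per Reg1 count without overlap, and the others were 1810009J06Rik and Kansl2-ps. By construction, a gene that does not follow acinar content spreads widely on this scale as well, which keeps that share low. Of the 104 genes with a called positive acinar slope 0 were lower without overlap, and of the 37 acinar enzymes 0. Reg2 and Reg3b are not among the 104. Reg3a (-1.55, p = 0.2) and Reg3g (0.83, p = 0.7) overlapped by this measure (exact permutation).

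**Figure D5:**
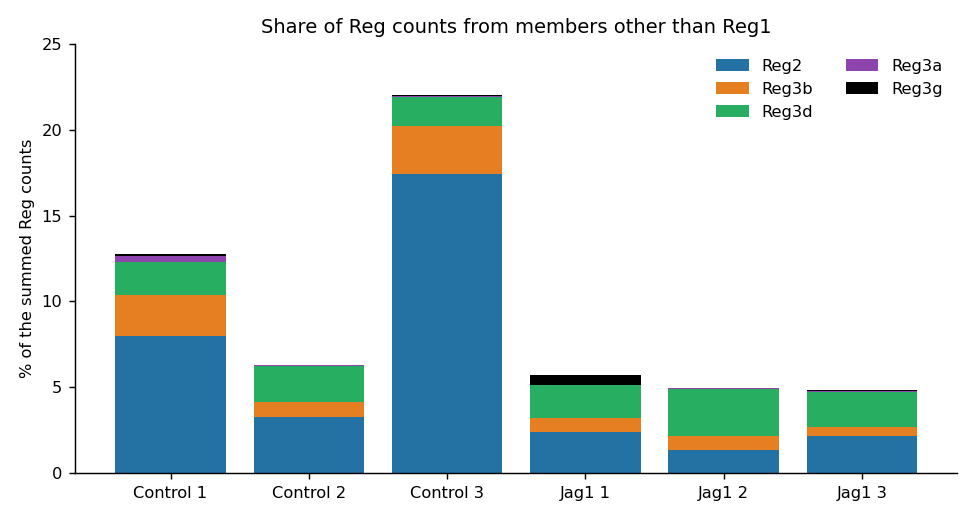
Share of each Reg gene other than Reg1 in the summed Reg counts of each library (percent). Reg1 holds the rest, 78.0% to 95.2% in every library, and Reg2 holds 3.27% to 17.4% in the control libraries and 1.35% to 2.40% in the Jag1 libraries.

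Control 1 and Jag1 3 had nearly the same acinar share, 15.2% and 15.4%, and offer a direct comparison of 1 library with 1 library, with intervals that cover counting error only. Reg1 was 1.14 times higher in Control 1 (95% interval 1.12 to 1.16) and Reg3d 1.18 times (1.05 to 1.33). Reg2 was 4.63 times higher (4.21 to 5.09) and Reg3b 5.39 times (4.49 to 6.50). Reg3a, at 106 against 12 counts, was 8.21 times higher (4.51 to 16.4), and Reg3g 1.52 times (0.830 to 2.84). At equal acinar content, the pair therefore differed several-fold in Reg2, Reg3a and Reg3b and little in Reg1 and Reg3d.

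Immune markers moved with part of this pattern. The summed level of 8 lymphocyte markers was 92.3 CPM in Control 1 and 13.5 to 26.7 CPM in the other 5 libraries, with 0 of the 8 at 0 counts in Control 1 and up to 2 of the 8 at 0 elsewhere. Control 1 was also the library with the highest Reg2, Reg3a and Reg3b. Of the 8 markers, 3 were tested for Jag1 versus control and 0 were called by edgeR or DESeq2 or had an unadjusted p under 0.05, with log2 fold changes of -1.62 for Ptprc, the pan-leukocyte antigen CD45, -0.57 for Cd79a of B cells and -0.24 for Cd4 of T helper cells. Without Control 1, the differences per acinar count were as large for Reg2 (-2.75 on the log2 scale) and nearly so for Reg3b (-1.89), while that of Reg3a moved from -2.14 to -1.49. Macrophage markers summed to 152 to 221 CPM in the control and 164 to 257 CPM in the Jag1 libraries, highest in Jag1 3, and did not single out Control 1. The part of immune cells in the Reg2, Reg3a and Reg3b values was not tested.

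Markers of other islet cells also moved with the groups. The summed level of 6 alpha cell markers was 35284 to 57145 CPM in the control and 14940 to 32986 CPM in the Jag1 libraries, and that of 8 stellate cell and fibroblast markers 179 to 224 CPM and 261 to 391 CPM, with 0 markers of either list at 0 counts. All 6 tested alpha markers had lower and all 8 tested stellate markers higher values, of which edgeR called 0 for Jag1 versus control. An unadjusted p under 0.05 was met by 4 alpha and 2 stellate markers, and by 700 of the 14073 genes tested. DESeq2 called 1 of the markers, Rgs5 of pericytes. Neither sum overlapped between the groups, as Reg2 and Reg3b per acinar count did not, and the part of these cells in the Reg values was not tested.

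Profiles over the 6 libraries were compared by Pearson's r of log2 CPM with the 14069 other genes tested, as a description, since all genes share these libraries. Closest to Reg1 were 1810018F18Rik (r = 0.997), the kallikrein gene Klk1b11 (0.997) and Hsd17b13 (0.996), and 23 acinar enzymes were among its 50 closest genes. Closest to Reg3d were 1810018F18Rik (0.994), the serpin gene Serpini2 (0.994) and Ptf1a (0.993), with 28 acinar enzymes among the closest 50. None of the enzymes was among the 50 genes closest to any other member.

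Closest to Reg2 were Arhgap39 (0.994), Ablim1 (0.986) and Arhgap25 (0.986). Reg3b was closest to Zfp28 (0.998), Sp110 (0.994) and Dclre1a (0.991), and Reg3a to Dock2 (0.996), a gene of leukocyte migration, the interleukin-21 receptor gene Il21r (0.993) and Sp100 (0.992). Marchf1 (0.995), Atp10d (0.986) and the immunoglobulin gene Ighg2b (0.986) were closest to Reg3g. Within the family, the tightest pairs were Reg1 with Reg3d (0.996), Reg3a with Reg3b (0.98) and Reg2 with Reg3b (0.97), and the loosest was Reg2 with Reg3g (0.61). Genes next to each other on the chromosome were not always the closest in profile: Reg3d lies between Reg3b and Reg3a, yet had r = 0.85 and 0.88 with them.

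Genes upstream and downstream of the Reg proteins were counted in the same way, and 0 passed by edgeR for Jag1 versus control. The 7 cytokine genes reported to induce Reg3 genes summed to only 0.550 to 1.06 CPM, with Il6 at 0 counts in all 6 libraries and Il22 at 4 counts in total, and 0 passed the filter. Of 13 receptor and signalling genes of these cytokines, 4 were higher, 9 lower and 0 called for Jag1 versus control by edgeR or DESeq2, and 0 had an unadjusted p under 0.05. Stat3 stood at 127.6 ± 7.01 CPM in the control and 121.5 ± 1.74 CPM in the Jag1 libraries (SD, n = 3 each). On the acinar share, 10 of the 13 had a positive slope and 1 was called. That was Il22ra1, the receptor subunit through which epithelial cells sense interleukin-22 (slope 1.33, SE 0.18, edgeR adjusted p = 0.00288). Reg1 and Reg3d had called positive slopes as well.

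Among 14 genes that STAT3 or acute inflammation induces, 8 were tested, 5 higher and 3 lower, and 0 were called for Jag1 versus control or for the acinar slope by edgeR or DESeq2. An unadjusted p under 0.05 was met by 1 of them, Lcn2, for Jag1 versus control, and by 700 of the 14073 genes tested. For the slope it was met by 2 of them and by 1063 of all genes. The median log2 fold change of these 8 for Jag1 versus control was 0.18, against -0.0041 over all genes tested. Lcn2, an antibacterial protein of inflamed epithelium, had 1.32 (SE 0.53, edgeR adjusted p = 0.955), opposite in sign to Reg3b, on only 89 counts over all libraries. The feedback inhibitor gene Socs3 had 0.29 and the kinase gene Pim3 0.39. The 3 lower genes, of the same sign as Reg3b, were Bcl3 (-0.34), Il4ra (-0.19) and Pim1 (-0.14). Extl3, reported as a receptor of Reg proteins, was level at 50.7 ± 3.91 CPM in the control and 52.9 ± 7.94 CPM in the Jag1 libraries (SD, n = 3 each; log2 fold change 0.06, SE 0.13). All 5 exostosin genes were tested, and 0 were called by edgeR or DESeq2 or had an unadjusted p under 0.05. Of 6 markers of intestinal epithelium, the other tissue known for Reg3 genes, Vil1, which is not confined to the intestine, accounted for nearly all of the 92.8 to 138 CPM summed in each library.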

How the data were processed

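RNA-seq libraries from islets of 3 control and 3 Jag1 mouse samples were analysed. The authors deposited estimated counts per gene symbol that were not normalized. Tools named in the submitters' processing notes are bcl2fastq, kallisto and limma, and the build is GRCm38 (mm10), all without versions; annotation and gene summing are not given in the sources used here. Per the file headers, the authors' deposited limma comparison holds log2 values (fold change, mean expression), p-values raw and adjusted, and statistics treated here as a score. A row without a gene name (0.00896% to 0.0155% of counts) was left out.

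Rounded counts of all 6 libraries went into edgeR 4.0.16 (R 4.3.3): filterByExpr with a minimum count of 10, TMM scaling, robust quasi-likelihood test and Benjamini-Hochberg adjustment over 14073 genes at 0.05. For the slope, log2 of the acinar share was added to the group. CPM uses TMM sizes, and log2 CPM a prior count of 2. Single ratios were tested by exact permutation of the 10 splits. Intervals are at 95%. A count of 3, the limit for 0 counts, was 0.0853 to 0.204 CPM; limits and intervals cover counting error only. DESeq2 1.42.0, limma-voom (limma 3.58.1), other scalings, filters, acinar measures, a replicate block and each library left out were alternatives. The edgeR fits of Jag1 versus control and of the acinar slope were first tested on simulated data, and the other tests were not.

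The members, gene lists and tests were chosen with earlier results of these data known. Named genes are the 6 members, Reg4, up to 3 genes of smallest p per list and comparison, the 3 closest profiles per member and the cluster's neighbours. From the lists, only genes a result turns on are named, and Stat3, Il6, Il22, Vil1, Pim1, Klk1, Pla2g1b, Rnase1, 1810009J06Rik and Kansl2-ps were named after their values were seen. Leaving out Control 1 and Jag1 3 for the slope, ratio and summed share, and the ratio to Reg1, were added after seeing the data. Coordinates are from GENCODE vM21 and promoters from RefSeq (GRCm38.p6), and all 6 members matched both. Coding sequences were aligned with Biopython 1.88, and figures drawn with matplotlib 3.10.9.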

Additional observations from a re-analysis of the deposited data

How the results depend on the processing

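The number of genes called for Jag1 versus control was 3, and 9 with no filter on low counts, 36 by DESeq2, 6 by limma-voom, 7 without Control 1 and Jag1 3 together, 5 with the acinar share as a covariate, 18 with that covariate and the replicate block, and 2 to 6 with each library left out. For the acinar slope, 105 genes were called, and 289 with no filter, 181 by DESeq2, 183 with the replicate block, 38 with the share taken from the 5 transcription factors, and 80 to 172 with each library left out. The number of members whose correlation with the acinar share passed was 2, and 0 with the share from those factors. Other than fewer samples or another number of genes tested, the cause of these moves was not tested. With each library left out in turn, the log2 difference of Jag1 versus control changed sign for Reg1 (-2.38 to 1.14, above 0 without Control 1, Jag1 1 or Jag1 2), Reg3b (-3.83 to 0.053, above 0 without Control 1), Reg3d (-2.09 to 1.07, above 0 without Control 1 or Jag1 1) and Reg3g (-0.80 to 0.28, above 0 without Jag1 2). So did the ratio of Reg3g to acinar counts (-0.90 to 1.23, below 0 without Control 2 or Jag1 1) and the summed Reg share (-1.65 to 0.48, above 0 without Control 1 or Jag1 1). With Reg1 as the denominator, the Reg3d difference turned to 0.062. Same-numbered control and Jag1 libraries deviated with correlations of -0.19, 0.11 and -0.29, so the numbers were not taken to pair libraries. With the replicate block, 3 genes were called for Jag1 versus control, the summed Reg share had p = 0.75 (exact permutation), and the Reg2 slope of 0.83 passed by edgeR (adjusted p = 0.00321). With block and acinar covariate together, Reg2 had -2.73 by edgeR (adjusted p = 0.0298). RLE and upper quartile scaling, TMM without acinar and Reg genes, the non-robust fit and the 5 core enzymes turned no member's direction. Depth limits Reg3a and Reg3g, with 127 and 66 counts over all libraries.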

Other observations

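Markers of duct cells, the other epithelium of the exocrine pancreas, summed to 226 to 344 CPM in the control and 333 to 496 CPM in the Jag1 libraries. Of the 10 tested, 7 had a positive slope on the acinar share and 1 was called. That was Tff2, a trefoil peptide that epithelia secrete with mucus (slope 0.88, edgeR adjusted p = 3.84e-07). Its slope lay between those of Reg2 (0.79) and Reg1 (1.02). Spp1, which encodes osteopontin, had a log2 fold change of 1.52 between the groups and did not pass by edgeR (adjusted p = 0.0813), while DESeq2 called it, as the 1 duct marker it called (adjusted p = 5.65e-13). For Jag1 versus control, 9 of the 10 tested duct markers had higher values, among them the carbonic anhydrase gene Car2 (2.47) and the transcription factor gene Sox9 (1.09). By edgeR 0 passed, and 5 of the 10 had an unadjusted p under 0.05, as did 700 of the 14073 genes tested.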
